A study of Mus musculus with 9 samples.

Results

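The EGR and NR4A factors are transcription factors of the immediate early class, and 7 of the 24054 gene rows in the deposited expression table carry their symbols. They were taken by gene symbol, as families proposed with earlier results of these data known. They are the 4 early growth response genes Egr1, Egr2, Egr3 and Egr4, and the 3 nuclear receptors of the NR4A family, Nr4a1, Nr4a2 and Nr4a3. RNA came from primary cortical neurons of C57BL/6 wild-type mice after 6 days in culture. The 9 libraries form 3 groups of 3. The normoxia group is the control, the hypoxia group spent 7 h at 0.2% oxygen, and the third group had the same 7 h at 0.2% oxygen with 10 nM of the thyroid hormone T3 in the medium. All groups were grown in Neurobasal medium with B27 supplement, and normoxia with T3 is not among the libraries analysed here. No label ties a library to its own culture or litter, so the p-values cover the spread from library to library, and that spread may be technical only. The libraries are called by the numbers in the column headers, 1 to 3 for normoxia, 7 to 9 for hypoxia and 11 to 13 for hypoxia with T3, and equal positions in these series do not pair libraries.

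Immediate early genes are transcribed soon after a stimulus, from factors already present in the cell and without new protein synthesis. In neurons the usual stimulus is synaptic activity and calcium entry, which reach these genes through CREB bound to cyclic AMP response elements and through serum response factor bound to CArG boxes. The EGR proteins bind GC-rich DNA through zinc fingers and are held back by the NAB corepressors. The NR4A proteins are orphan nuclear receptors that act without a known hormone, alone on a half-site or, for Nr4a1 and Nr4a2, as partners of the retinoid X receptors.

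Promoter sequence is shown because these elements are how the genes are known to be switched on. RefSeq promoter windows on GRCm38.p6 are shown for 5 of the 7 genes, Egr2, Egr4, Nr4a1, Nr4a2 and Nr4a3. Windows of Egr1 and Egr3 were not examined here, so nothing is said about their promoters. Each window is the 250 bases before a start site, printed 5′ to 3′ on the gene's strand. Capitals mark TGACG on either strand (the core of a cyclic AMP response element), a CArG box, or GCGGGGGCG on either strand (an EGR-type site).
Egr2, chr10:67537619-67537868, plus strand, 1 of 5 windows listed for the gene: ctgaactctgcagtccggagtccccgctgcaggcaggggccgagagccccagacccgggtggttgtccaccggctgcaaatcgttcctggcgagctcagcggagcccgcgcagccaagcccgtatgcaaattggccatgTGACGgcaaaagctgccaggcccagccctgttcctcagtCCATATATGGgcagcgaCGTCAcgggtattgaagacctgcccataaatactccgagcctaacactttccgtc
Egr4, chr6:85513590-85513839, minus strand: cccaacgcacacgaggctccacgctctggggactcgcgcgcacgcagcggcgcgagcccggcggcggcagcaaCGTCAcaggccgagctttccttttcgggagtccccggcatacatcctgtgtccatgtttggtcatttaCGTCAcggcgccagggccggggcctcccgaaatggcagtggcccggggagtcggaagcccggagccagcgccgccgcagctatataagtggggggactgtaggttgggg
Nr4a1, chr15:101266596-101266845, plus strand: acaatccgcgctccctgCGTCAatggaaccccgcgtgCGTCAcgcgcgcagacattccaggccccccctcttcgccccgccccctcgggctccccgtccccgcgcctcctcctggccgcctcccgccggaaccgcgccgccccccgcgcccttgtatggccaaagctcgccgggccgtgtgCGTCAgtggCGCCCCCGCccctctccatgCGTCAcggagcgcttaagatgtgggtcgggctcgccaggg
Nr4a2, chr2:57124004-57124253, minus strand: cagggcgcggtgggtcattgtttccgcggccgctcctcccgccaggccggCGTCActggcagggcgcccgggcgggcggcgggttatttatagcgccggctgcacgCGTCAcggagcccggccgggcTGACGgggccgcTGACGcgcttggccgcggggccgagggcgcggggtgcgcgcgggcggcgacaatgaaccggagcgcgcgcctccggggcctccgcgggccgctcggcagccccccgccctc
Nr4a3, chr4:48045055-48045152, plus strand, the 98 bases of its window that lie before the first annotated exon: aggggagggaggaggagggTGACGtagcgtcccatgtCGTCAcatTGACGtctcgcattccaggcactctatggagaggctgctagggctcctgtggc

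The Egr2 window shown held 2 TGACG matches and a CArG box. Of the 5 Egr2 windows, 3 that overlap one another hold the same 2 TGACG matches, and the other 2, among them the one before the most upstream start, hold 0. The Egr4 window also held 2 TGACG matches. Each NR4A window held 4, those of Nr4a3 counted over its whole window, of which 3 fall in the bases printed. The Nr4a1 window, which ends at 101266845, lies inside the annotated gene, which begins at 101254269. It therefore does not precede the most upstream annotated start of Nr4a1. Among all 32851 windows of the same length, 17.8% held at least 1 TGACG, 3.9% at least 2 and 0.137% at least 4. The CArG box of Egr2 was matched in 1.47% of all windows, and the GCGGGGGCG of Nr4a1 in 2.57%. The full element TGACGTCA, which contains TGACG, was found in none of the windows of these 5 genes and in 1.55% of all. Neither GCGTGGGCG (0.536% of all windows) nor the NR4A half-site AAAGGTCA (1.34%) occurred in them. A match describes letters in a window and not a bound site. The part of these matches in the response of any member was not tested.

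On GRCm38 with the GENCODE M21 annotation, Egr1 lies at chr18:34859823-34864984 (plus strand), Egr2 at chr10:67535475-67542188 (plus), Egr3 at chr14:70077203-70082614 (plus) and Egr4 at chr6:85511121-85513589 (minus). Nr4a1 lies at chr15:101254269-101274795 (plus), Nr4a2 at chr2:57106830-57124003 (minus) and Nr4a3 at chr4:48045153-48086447 (plus). In that annotation no other gene overlaps any of the 7. The longest coding transcript has 2 exons in each EGR gene and 8 in each NR4A gene.

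The values are CPM, counts scaled to library size, with a further TMM scaling by the authors. The libraries held 17182339 to 33937842 recovered reads, 1 read being worth 0.0302 to 0.0565 CPM. The member value with the fewest reads, Egr4 in normoxia 1, rested on 33, a counting error of 17.4% of the value. Markers of neurons were high in every library, their 9 genes summing to 3208 to 5424 CPM. The sum was 5091 to 5424 CPM in normoxia, 3602 to 4028 in hypoxia and 3208 to 3398 with T3, a decline carried largely by the tubulin Tubb3 (group means of 2373, 1104 and 701 CPM). The 8 astrocyte markers summed to 117 to 182, 176 to 357 and 233 to 367 CPM in the same groups, the 7 oligodendrocyte lineage markers to 40.5 to 141, 77.8 to 205 and 130 to 182, and the 5 progenitor markers to 12.3 to 72.6, 29.7 to 88.3 and 45.9 to 75.1. Microglial markers (6 genes) summed to at most 1.53 CPM and those of endothelial and mural cells (5 genes) to at most 2.86. Of the marker genes tested, 2 of 7 astrocyte genes and 1 of 7 oligodendrocyte lineage genes rose in hypoxia, where 14.3% of all tested genes rose, and 3 of 9 neuronal genes fell, where 19.3% of all fell. In such bulk RNA, fewer cells of a type and less RNA per cell cannot be told apart, and the part of these markers in the results on EGR and NR4A genes was not tested.

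In normoxia Nr4a3 and Nr4a2 were the most abundant members. Levels are given here as CPM per kilobase of annotated exon, so that genes can be set against each other. Nr4a3 stood at 19.9 ± 5.06 (SD, n = 3) and Nr4a2 at 17.0 ± 3.01, with overlapping libraries. Nr4a1 at 4.87 ± 1.56, Egr1 at 3.74 ± 0.246 and Egr3 at 3.72 ± 0.482 also overlapped one another. Egr4 at 0.943 ± 0.495 and Egr2 at 0.445 ± 0.116 were the least abundant, and their libraries did not overlap. In hypoxia Egr1 reached 23.5 ± 8.74, a range that overlapped those of Nr4a2 (18.2 ± 2.05), Nr4a3 (14.9 ± 1.36) and Nr4a1 (11.97 ± 5.07). Egr3 (3.57 ± 1.22), Egr4 (2.85 ± 0.867) and Egr2 (2.20 ± 1.13) overlapped at the foot of the order. With T3, Egr1 stood alone at 38.7 ± 2.43. Nr4a2 (16.8 ± 0.527) and Nr4a1 (14.99 ± 2.51) overlapped, as did Nr4a1 and Nr4a3 (11.2 ± 1.75). Egr2 (3.68 ± 0.174), Egr4 (3.07 ± 1.14) and Egr3 (2.57 ± 0.589) came last, Egr4 overlapping both others while Egr2 and Egr3 did not overlap. Taking the length of the longest coding transcript exchanged Egr1 and Egr3 in normoxia, Nr4a1 and Nr4a3 in hypoxia, and Nr4a1 and Nr4a2 with T3, pairs whose libraries overlap.

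In hypoxia 4 of the 7 transcripts rose, Egr1, Egr2, Egr4 and Nr4a1, while Egr3, Nr4a2 and Nr4a3 did not pass the test. Across all 12923 tested genes 14.3% rose and 33.6% changed in either direction (limma on log2(CPM + 1), Benjamini-Hochberg adjusted p under 0.05). None of the 7 fell past the threshold, against 19.3% of all genes. Nr4a3 was the nearest, with an unadjusted p of 0.030 (limma), and neither edgeR nor DESeq2 called a fall. The groups did not overlap in 4 members that were higher and in Nr4a3, which was lower, against 20.7% and 27.0% of all tested genes (47.8% together). Log2 changes below are differences of group means of log2(CPM + 1), a scale that understates the change of low genes.

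Egr1, the founding member of its family and an activator induced by growth factors and synaptic activity, read 15.99, 18.0 and 16.3 CPM in normoxia 1, 2 and 3. In hypoxia 7, 8 and 9 it read 66.9, 145 and 104 CPM. Every hypoxia library was well above the normoxia ones, which lay close together, while the hypoxia libraries spread over a 2.17-fold range. The log2 change was 2.52 ± 0.20 (SE; limma, adjusted p = 2.0e-05), 5.72-fold on that scale, the 3rd largest rise among all tested genes. Egr2, known for its part in myelination and hindbrain patterning, read 1.46, 1.148 and 1.93 CPM in normoxia and 5.09, 11.9 and 5.40 CPM in hypoxia. Its groups did not overlap, and hypoxia 8 stood far above the other hypoxia libraries. The log2 change of Egr2 was 1.67 ± 0.24 (limma, adjusted p = 0.00067), the 23rd largest rise.

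Egr4, a family member described mainly in neurons and germ cells, read 1.37, 1.45 and 3.25 CPM in normoxia and 4.41, 8.10 and 5.85 CPM in hypoxia. Normoxia 3 stood above the other normoxia libraries and still below every hypoxia library. Its log2 change was 1.26 ± 0.28 (limma, adjusted p = 0.0060). Egr3, which is known as a calcium-responsive factor acting after Egr1, read 15.03, 15.3 and 18.8 CPM in normoxia and 10.9, 21.6 and 14.7 CPM in hypoxia. The hypoxia libraries lay on both sides of the normoxia ones. The log2 change of Egr3 was -0.10, with a 95% interval from -0.57 to 0.38 (limma, adjusted p = 0.75). Its sign turned with the scaling of the columns to equal sums (0.035) and without normoxia 3 or hypoxia 7.

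Among the NR4A genes, Nr4a1 (Nur77), which is induced by activity and known for roles in apoptosis and metabolism, read 12.8, 15.2 and 23.3 CPM in normoxia. It read 30.9, 62.5 and 32.5 CPM in hypoxia, above every normoxia library, with hypoxia 8 again the highest. The log2 change was 1.22 ± 0.26 (limma, adjusted p = 0.0053). Nr4a2 (Nurr1), a factor needed for midbrain dopamine neurons, read 65.9, 58.9 and 82.6 CPM in normoxia and 77.9, 79.6 and 64.4 CPM in hypoxia. These libraries overlapped. The log2 change of Nr4a2 was 0.10, with a 95% interval from -0.14 to 0.35 (limma, adjusted p = 0.50). Nr4a3 (Nor1), the third receptor of the family, read 101, 101 and 154 CPM in normoxia and 83.0, 98.5 and 86.4 CPM in hypoxia. Each hypoxia library lay below each normoxia library, although hypoxia 8 came close to normoxia 1 and 2. The log2 change of Nr4a3 was -0.38 ± 0.15 (limma, adjusted p = 0.077).

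**Figure D1:**
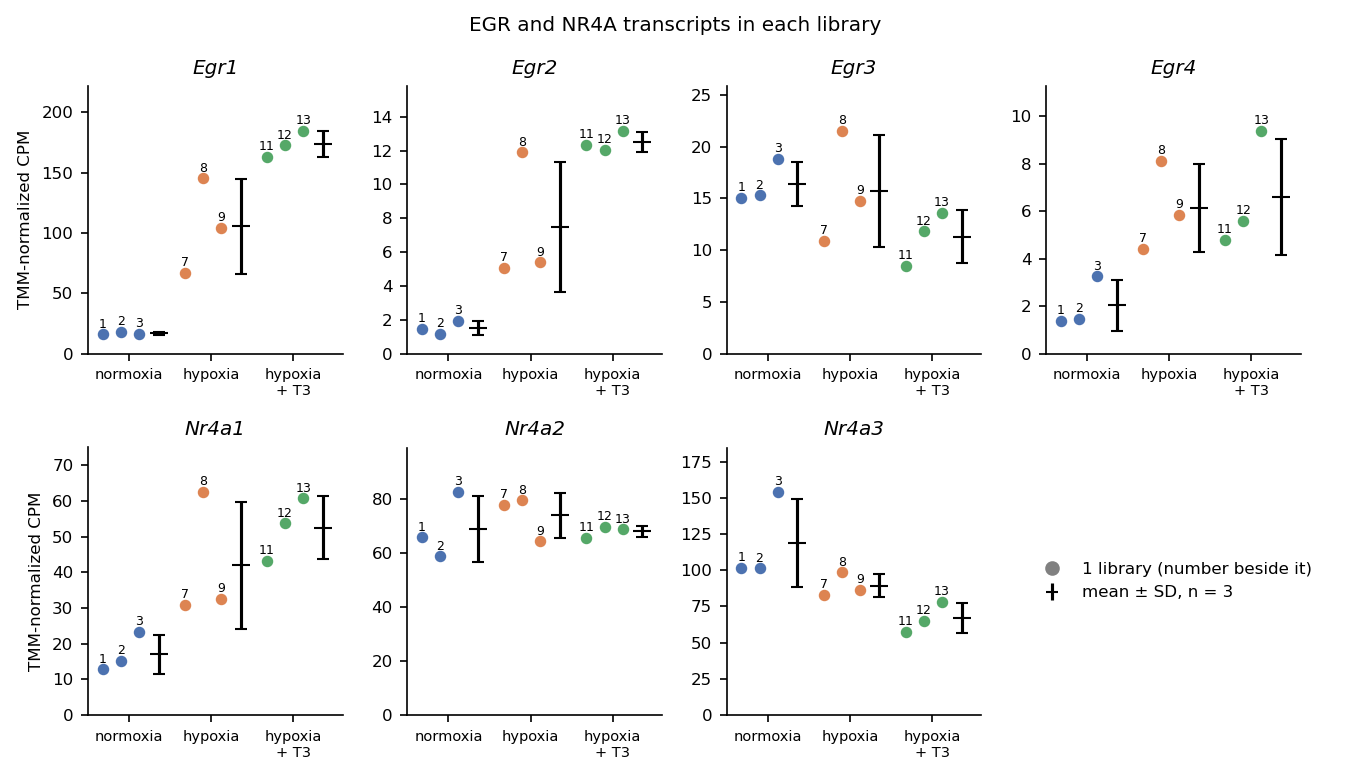
TMM-normalized CPM (y axis, linear, from 0, scaled per gene) of the 7 genes in normoxia, hypoxia and hypoxia with T3. Each point is 1 library with its number beside it, and the black mark and bar are the group mean and SD (n = 3); Egr1 lies between 15.99 and 18.0 CPM in normoxia and between 163 and 185 CPM with T3, while Nr4a3 is highest in normoxia 3 at 154 CPM.

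With T3 in the hypoxic medium Egr1 was higher than in hypoxia alone, and no other member passed the threshold. That is 1 of 7 members against 6.48% of all tested genes, 2.73% of which rose and 3.75% fell. Egr1 read 163, 173 and 185 CPM in T3 11, 12 and 13, above all 3 hypoxia libraries (66.9 to 145 CPM). The log2 change was 0.78 ± 0.20 (limma, adjusted p = 0.047). This call held under 7 of 21 alternatives, with adjusted p from 0.029 to 0.14. Leaving out any library but hypoxia 8 ended it, the log2 change ranging from 0.49 without hypoxia 7 to 1.04 without hypoxia 8. It was also lost with edgeR (adjusted p = 0.054) and with equal column sums (0.058), and kept with DESeq2 (0.039).

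Egr2 read 12.3, 12.04 and 13.2 CPM with T3, all above the highest hypoxia library at 11.9 CPM. The gap between T3 12 and hypoxia 8 was smaller than the counting error of either value (0.63 and 0.64 CPM). The log2 change of Egr2 was 0.76 ± 0.24 (limma, adjusted p = 0.073), and it passed in the fit without hypoxia 8 (1.11, adjusted p = 0.018). Egr3 read 8.49, 11.8 and 13.6 CPM with T3, and Egr4 4.80, 5.59 and 9.39 CPM. Both overlapped the hypoxia libraries, with log2 changes of -0.42 (limma, adjusted p = 0.24) for Egr3 and 0.08 (0.89) for Egr4. The sign for Egr4 turned without hypoxia 7 or T3 13.

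Nr4a1 read 43.3, 53.7 and 60.8 CPM with T3, none above hypoxia 8. Its log2 change was 0.38, with a 95% interval from -0.19 to 0.95 (limma, adjusted p = 0.38). Nr4a2 read 65.6, 69.7 and 68.8 CPM with T3, within the range of the hypoxia libraries, a log2 change of -0.11 (interval from -0.36 to 0.14, limma, adjusted p = 0.56). The T3 libraries of Nr4a2 were the tightest of any member, with an SD of 3.14% of the mean. Nr4a3 read 57.5, 65.0 and 78.2 CPM with T3, each below every hypoxia library. The log2 change of Nr4a3 was -0.42 ± 0.15 (limma, adjusted p = 0.11). It passed without normoxia 3 (adjusted p = 0.045) or without T3 13 (-0.54, 0.0495). Groups thus did not overlap for Egr1 and Egr2, which were higher, and for Nr4a3, which was lower, where 31.7% of all tested genes did not overlap. For Egr2 the gap was within counting error.

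Set against normoxia, hypoxia with T3 had Egr1, Egr2, Egr4 and Nr4a1 higher, the 4 called in hypoxia alone, and 1 member lower, Nr4a3. Of all tested genes 25.5% rose and 29.5% fell in this comparison, 55.1% in all. The 3 comparisons share libraries, so this is not a separate line of evidence. Egr1 was higher by 3.30 ± 0.20 on the log2 scale (limma, adjusted p = 8.9e-07), 9.82-fold and the 4th largest rise of all genes, and Egr2 by 2.44 ± 0.24 (1.8e-05). Nr4a1 was higher by 1.60 ± 0.26 (limma, adjusted p = 0.00041) and Egr4 by 1.33 ± 0.28 (0.0019). These 4 genes had no overlap between the groups, which held for 29.8% of all tested genes in that direction. Nr4a3 fell by 0.80 ± 0.15 on the log2 scale (limma, adjusted p = 0.0012), from 119 ± 30.3 to 66.9 ± 10.5 CPM (SD, n = 3), again with no overlap. Egr3 was lower in each T3 library than in each normoxia library, with a log2 change of -0.51 ± 0.22 (limma, adjusted p = 0.063). It passed in 5 of 21 alternatives, which were DESeq2, the fit of only the libraries compared, and the fits without hypoxia 7, hypoxia 8 or T3 13. Nr4a2 differed by -0.01 (interval from -0.26 to 0.24, limma, adjusted p = 0.95). The 6 members without overlap stand against 62.7% of all tested genes.

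**Figure D2:**
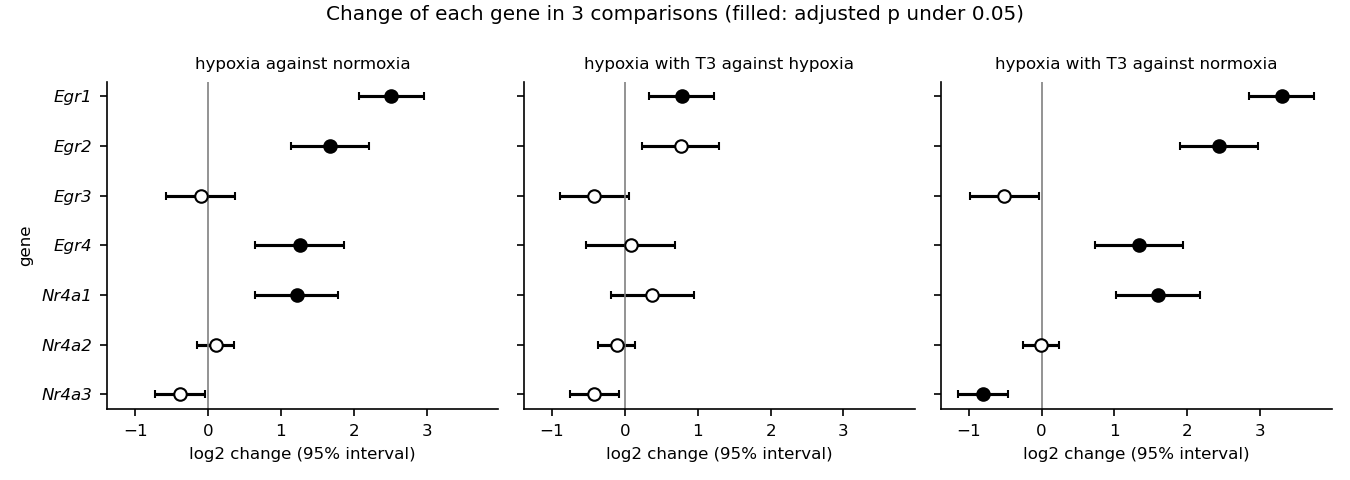
Log2 change of each gene (x axis, differences of mean log2(CPM + 1)) in 3 comparisons, as points with 95% intervals from limma, filled where the adjusted p is under 0.05. Egr1, Egr2, Egr4 and Nr4a1 are filled to the right of 0 in both comparisons with normoxia, Nr4a3 is filled to the left in hypoxia with T3 against normoxia at -0.80, and Egr1 alone is filled in hypoxia with T3 against hypoxia at 0.78.

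Because the members of a family moved apart, their ratio within each library was also taken, a measure that no scaling of a library can alter. The pairs were chosen after the values were seen. Egr1 to Egr3 stood at 1.06, 1.18 and 0.865 in normoxia, near equal CPM. The ratio rose to 6.13, 6.74 and 7.08 in hypoxia and to 19.2, 14.6 and 13.6 with T3. The 3 groups were apart, and the hypoxia libraries, which spread 2.17-fold in Egr1 itself, lay close together in this ratio. Egr2 to Egr3 read 0.0970, 0.0751 and 0.102 in normoxia, 0.466, 0.552 and 0.366 in hypoxia, and 1.45, 1.02 and 0.969 with T3. Nr4a1 to Nr4a3 read 0.126, 0.150 and 0.151 in normoxia, 0.372, 0.635 and 0.376 in hypoxia, and 0.753, 0.827 and 0.777 with T3. Here too the 3 groups did not overlap. Nr4a1 to Nr4a2 read 0.195, 0.258 and 0.281 in normoxia and 0.397, 0.785 and 0.505 in hypoxia. With T3 that ratio read 0.659, 0.771 and 0.884, overlapping hypoxia. In 12 comparisons of these 4 ratios, 11 gave p = 0.1 in a two-sided exact permutation test, the smallest p that 3 libraries against 3 allow, and 1 gave 0.3 (adjusted exact p of 0.109 and 0.3). The design cannot bring such a test under 0.05.

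**Figure D3:**
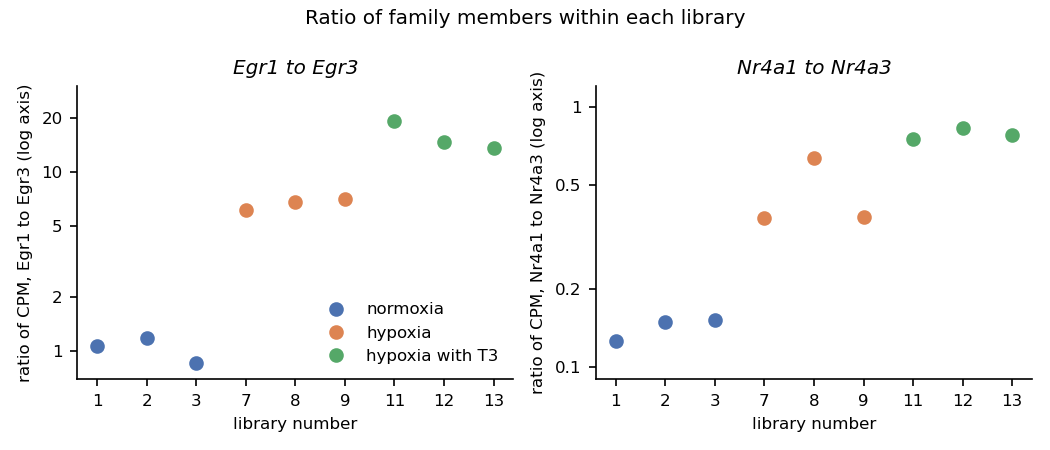
Ratio of CPM within each library (y axes, log scale) for Egr1 to Egr3 (left) and Nr4a1 to Nr4a3 (right), against library number, with 1 point per library coloured by group. In both panels the normoxia libraries are lowest and the T3 libraries highest with no overlap, from 0.865 to 19.2 on the left and from 0.126 to 0.827 on the right.

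The members also varied together between libraries of 1 group. In hypoxia, library 8 was the highest for 7 of 7 members, where it was the highest for 31.9% of all tested genes, and library 7 was the lowest for 6 of 7 (33.2% of all). In normoxia, library 3 was the highest for 6 of 7 members (32.1% of all genes) and library 1 the lowest for 4 of 7 (30.9%). With T3, library 13 was the highest for 6 of 7 (36.1%) and library 11 the lowest for 6 of 7 (38.4%). For the other early transcription factors the picture was less even, with 15 of 20 highest in normoxia 3, 9 of 20 in hypoxia 8 and 7 of 20 in T3 13. Astrocyte markers summed to 117, 141 and 182 CPM in normoxia 1, 2 and 3, to 176, 242 and 357 in hypoxia 7, 8 and 9, and to 313, 367 and 233 in T3 11, 12 and 13. Progenitor markers summed to 12.3, 35.3 and 72.6 CPM, to 29.7, 74.1 and 88.3, and to 54.5, 75.1 and 45.9 in the same order. Oligodendrocyte lineage markers summed to 40.5, 80.8 and 141 CPM, to 77.8, 198 and 205, and to 130, 182 and 132. These sums were highest in normoxia 3, hypoxia 9 and T3 12, and lowest in normoxia 1 and hypoxia 7. Within the T3 group they were lowest in T3 13, or in T3 11 for the oligodendrocyte lineage. Most members were highest in normoxia 3, hypoxia 8 and T3 13, and lowest in normoxia 1, hypoxia 7 and T3 11. The part of these markers in the spread of the members was not tested.

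To find the genes whose pattern was most like each member, log2(CPM + 1) in the 9 libraries was taken relative to the gene's own normoxia mean, and genes were ordered by mean absolute difference. Nearest to Egr1 were Slc2a1, a glucose transporter (0.27), and Gadd45g (0.36). Nearest to Egr2 were Cyr61, a secreted matrix protein (0.12), and Ier2, another immediate early gene (0.22). Fosb, an early gene of the AP-1 family, was nearest to both Egr4 (0.18) and Nr4a1 (0.14). They were followed by Gys1, a glycogen synthase, for Egr4 (0.24) and P4ha2, a collagen prolyl hydroxylase, for Nr4a1 (0.24). Egr3 was nearest to the kinase Lrrk2 (0.11) and to Tmcc3 (0.12). Nr4a2, which barely moved, was nearest to Nap1l5 (0.05) and Gng4 (0.06), and Nr4a3 to the Mediator subunit Med13 and the glutamate receptor subunit Grik3 (0.09 each). Within the 7, the closest pair was Egr4 with Nr4a1 (0.18), then Egr3 with Nr4a3 (0.25), pairs that cross the families. Egr1 and Egr2 stood 0.64 apart. These distances are on the log2(CPM + 1) scale, which understates the change of low genes such as Egr2 and Egr4. As ratios of mean CPM to normoxia, Egr1 stood at 6.29 in hypoxia and 10.3 with T3, and Egr2 at 4.94 and 8.28. The same ratios were 3.02 and 3.25 for Egr4, and 2.46 and 3.08 for Nr4a1.

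The other early transcription factors moved in the direction of Egr1. Of 21 listed, 20 were tested, and 16 rose and 1 fell in hypoxia (median log2 change 0.67, against -0.00076 over all tested genes, 33.6% of which were called). The median of the 7 EGR and NR4A genes was 1.22. Fos, an AP-1 subunit, went from 18.0 ± 9.42 to 86.1 ± 4.22 CPM (log2 change 2.30, limma, adjusted p = 9.9e-05), and its partner Jun from 64.0 ± 5.39 to 167 ± 17.1 CPM (1.36, 2.0e-06). Ier2 went from 12.3 ± 2.19 to 34.4 ± 1.89 CPM (1.43, limma, adjusted p = 7.8e-06). Junb rose by a log2 change of 1.69 (limma, adjusted p = 2.4e-05), with values that are not whole reads. With T3 against hypoxia 9 of the 20 rose and 2 fell, against 6.48% of all tested genes called, with a median of 0.53 (all genes -0.0064) where the EGR and NR4A genes had 0.08. Jun reached 285 ± 17.8 CPM (0.78, limma, adjusted p = 0.0020) and Ier2 62.2 ± 1.56 CPM (0.83, 0.0050). Klf6, a zinc finger factor, moved the other way, from 169 ± 15.6 to 120.5 ± 5.45 CPM (-0.48, limma, adjusted p = 0.0094), a call lost without T3 12 (0.060). The count that rose with T3 was 3 to 9 when 1 library was left out, with 3 without T3 11, 4 without hypoxia 8 or T3 12, and 5 without hypoxia 7.

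Effectors of neuronal activity split. Of 20 listed, 19 were tested, and in hypoxia 10 rose and 5 fell (median 0.33), against 14.3% and 19.3% of all tested genes. Arc, a regulator of synaptic receptors and an EGR target, went from 2.34 ± 0.395 to 11.6 ± 1.66 CPM (1.92, limma, adjusted p = 3.6e-06), and Dusp1, a phosphatase, from 21.96 ± 2.57 to 49.1 ± 7.54 CPM (1.12, 8.9e-05). Gadd45g and Gadd45b, stress-induced genes whose values are not whole reads, rose by log2 changes of 2.04 and 1.78 (limma, adjusted p = 2.2e-06 and 5.3e-05). With T3 against hypoxia 6 of the 19 rose and none fell (limma), against 2.73% and 3.75% of all tested genes. On the 16 with whole reads edgeR called 4 higher and DESeq2 5, and neither called one lower. Of the 19, 12 had an unadjusted p under 0.05 in either direction. Arc reached 21.8 ± 1.64 CPM (0.86, limma, adjusted p = 0.010), a call lost without T3 11 or T3 12 (adjusted p up to 0.063). The count was 2 to 8 when 1 library was left out, with 2 without T3 11 or T3 12 and 3 without hypoxia 8, and 1 fell without normoxia 3.

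Of 11 genes listed as direct EGR targets, 8 passed the filter. In hypoxia 1 rose and 1 fell, with a median of 0.02, 2 of 8 called where 33.6% of all tested genes were. The riser was Arc, which is on both lists, and the gene that fell was Cdk5r1, an activator of CDK5, from 446 to 382 CPM (-0.22, limma, adjusted p = 0.026). That call was lost with equal column sums (adjusted p = 0.25) and without normoxia 1, hypoxia 8 or hypoxia 9 (up to 0.097). Equal column sums gave 3 of the 8 higher and 0 lower, with a median of 0.16 against 0.13 over all tested genes. With T3 against hypoxia Arc alone rose (limma), while DESeq2 called 2 of the 8 higher. The corepressors and dimer partners of the family, Nab1, Nab2, Rxra, Rxrb and Rxrg, gave 0 calls of 5 in hypoxia and 0 with T3 against hypoxia (limma). Of all tested genes 33.6% and 6.48% were called in these comparisons. In each, 1 of the 5 had an unadjusted p under 0.05, and edgeR and DESeq2 called 0. Equal column sums called 1 of the 5 higher in hypoxia. Nab2, itself known as an EGR target, read 6.8 CPM in normoxia and 10.7 in hypoxia (0.68, limma, adjusted p = 0.10), and passed without normoxia 3 (0.0043). Against normoxia, hypoxia with T3 lowered Nab1 from 62.5 ± 8.06 to 47.1 ± 6.41 CPM (-0.40, limma, adjusted p = 0.0073) and raised Rxrb from 53.5 ± 2.73 to 61.7 ± 1.37 CPM (0.20, 0.019), the latter lost without normoxia 3 or T3 13 (up to 0.072).

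Transcripts of the activators upstream of early genes, the kinases and factors that switch them on, gave 11 falls and 1 rise among 24 tested in hypoxia (median -0.20), against 19.3% and 14.3% of all tested genes. With equal column sums 5 fell and 3 rose, where 1232 of all 12923 genes fell and 3973 rose. Mef2c, an activity-dependent factor, went from 602 ± 26.0 to 409.9 ± 54.0 CPM (-0.56, limma, adjusted p = 0.00091). Rps6ka5, a kinase of CREB and histone H3, fell by a log2 change of 0.74 (limma, adjusted p = 0.0033), and the related Rps6ka1 was higher by 0.42 (0.0039). With T3 against hypoxia 1 of 24 rose, where 2.73% of all tested genes rose and 3.75% fell. It was the coactivator gene Crebbp, whose values are not whole reads and whose call was lost without hypoxia 7, hypoxia 8, T3 11 or T3 12. None fell (limma; 10 had an unadjusted p under 0.05 in either direction), while DESeq2 called 4 lower and edgeR 0. The number lower was 7 without T3 13 and 2 with equal column sums. The gene of CREB itself, Creb1, read 44.3 CPM in hypoxia and 35.6 with T3 (-0.31, limma, adjusted p = 0.051).

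With both directions pooled, relatives of both families by structure were called in hypoxia at shares not far from that of all tested genes. These were 40.0% of the other nuclear receptors and 33.3% of the related zinc finger factors, against 33.6%. Most of these calls were falls, where 19.3% of all tested genes fell and 14.3% rose. Of 22 other nuclear receptors listed 20 were tested, and in hypoxia 7 fell and 1 rose (median -0.15), or 5 and 6 with equal column sums. Thrb, a receptor for T3, went from 28.0 ± 0.635 to 11.1 ± 2.12 CPM (-1.28, limma, adjusted p = 0.00012) and Rorb, an orphan receptor of cortical layers, from 72.5 ± 3.56 to 33.3 ± 3.23 CPM (-1.10, 3.1e-05). With T3, 4 of the 20 were lower than in hypoxia (1 without T3 12, 2 without T3 11, hypoxia 7 or hypoxia 8, and 6 without T3 13), among them Rorb at 17.2 ± 2.05 CPM (-0.91, limma, adjusted p = 0.0018) and Thrb at 5.43 ± 0.927 CPM (-0.91, 0.011, but 0.052 without T3 12). None was higher (limma and edgeR), while DESeq2 called 1 higher, and 9 had an unadjusted p under 0.05 in either direction. Of all tested genes 3.75% were lower and 2.73% higher with T3 than in hypoxia (limma). Of 12 related zinc finger factors 4 fell in hypoxia and none rose (limma, edgeR and DESeq2; 4 had an unadjusted p under 0.05), and 1 rose with equal column sums. Klf7 went from 67.3 ± 7.33 to 32.7 ± 1.505 CPM (-1.02, limma, adjusted p = 0.00033) and Klf13 from 175 ± 14.5 to 108 ± 2.66 CPM (-0.68, 0.00061). In T3 against hypoxia 2 of the 12 fell, against 3.75% of all tested genes. The number lower was 0 without hypoxia 7, hypoxia 8, T3 11 or T3 12, 4 without T3 13 and 4 with equal column sums. In the same comparison 1 of the 12 rose, against 2.73% of all tested genes. It was Klf9, a gene known to respond to thyroid hormone, at 21.7 and 51.5 CPM (1.21, limma, adjusted p = 0.0018). The values of Klf9 are not whole reads.

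**Figure D4:**
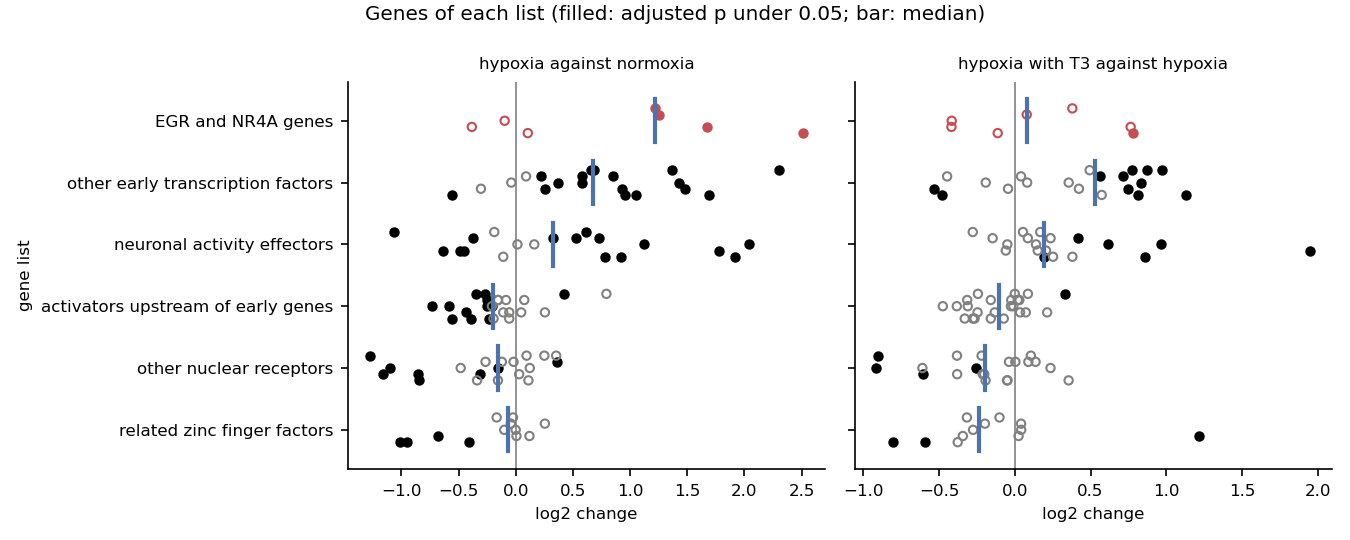
Log2 change (x axis) of each tested gene of 6 gene lists, 1 point per gene, filled where the limma adjusted p is under 0.05, with a bar at the list's median; left, hypoxia against normoxia, right, hypoxia with T3 against hypoxia. In the left panel the medians are 1.22 for the EGR and NR4A genes, 0.67 for the other early transcription factors and -0.20 for the upstream activators, of which 11 are called lower, or 5 with equal column sums.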

How the data were processed

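Polyadenylated RNA was sequenced in 9 libraries (3 groups of 3). The deposited values are a signal, TMM-normalized CPM, made by the authors with Bowtie2 2.1.0, RSEM 1.2.15, edgeR and mm10, per the submitters' processing notes; their order, the annotation release and filters are not given in the sources used here. Column sums run from 945822 to 1091200. In each column 99.84% to 99.99% of values were whole multiples of 1 read within 0.01 reads, which gave the reads per library. In 35 gene rows some values (142 in all) were not, among them no EGR or NR4A gene. Depth gives counting error only. 1 unnamed column, holding 4 numbers, was not used.

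Genes above 1 CPM in at least 3 libraries were kept (12923, the 7 EGR and NR4A genes among them). In R 4.3.3, limma 3.58.1 (lmFit, eBayes with trend) was fitted to log2(CPM + 1) of all 9 libraries, two-sided, with Benjamini-Hochberg adjustment over all 12923 genes and a threshold of 0.05. Alternatives were other pseudocounts, filters, scalings and thresholds, each library left out, and edgeR 4.0.16 and DESeq2 1.42.0 on recovered reads. The steps were tested on simulated data. Named are all 7 genes, for each list the (up to 4) genes of smallest adjusted p, and the 2 genes most like each. A gene that this rule would name is not reported here. The 7 genes and the lists were chosen with earlier results of these data known. Promoter windows come from RefSeq (GRCm38.p6) and gene positions from GENCODE M21.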

Additional observations from a re-analysis of the deposited data

How the results depend on the processing

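Of 438 alternative values for single EGR and NR4A genes, 407 kept both sign and side of the threshold, 14 lost a call, 8 gained one and 9 changed sign. The calls of Egr1, Egr2, Egr4 and Nr4a1 against normoxia, and of Nr4a3 in hypoxia with T3 against normoxia, held in every alternative that tested the gene; Egr4 did not pass the filter at a mean of 5 CPM. Signs turned for log2 changes near 0. In hypoxia against normoxia Egr3 read 0.035 with equal column sums, 0.0011 without normoxia 3 and 0.12 without hypoxia 7 (-0.34 to 0.12 with 1 library left out), and Nr4a2 -0.0020 without normoxia 2 (-0.0020 to 0.24). In hypoxia with T3 against hypoxia Egr4 read -0.10 without hypoxia 7 and -0.17 without T3 13 (-0.17 to 0.27). In hypoxia with T3 against normoxia Nr4a2 read 0.10 with equal column sums, 0.13 without normoxia 3 and 0.017 without T3 11 (-0.12 to 0.13). The count of the 7 called in hypoxia with T3 against hypoxia was 1, but 0 with no filter, only the 2 groups compared, equal column sums, no variance trend, a threshold of 0.01, or edgeR (3 at an unadjusted p under 0.05 in each), and 0 to 2 when 1 library was left out. The same comparison called 838 of all genes, 172 with no filter, 275 with only the 2 groups, 234 with no variance trend, 36 at a threshold of 0.01, 1728 with DESeq2 and 31 to 1817 when 1 library was left out (31 without T3 12, 1817 without T3 13). Hypoxia against normoxia called 4343 genes and 2177 at a threshold of 0.01. On recovered reads edgeR called 4288 genes in hypoxia against normoxia, 752 in hypoxia with T3 against hypoxia and 7093 in hypoxia with T3 against normoxia. Leaving out the 35 genes with values off whole reads, an alternative chosen after seeing the data, changed no count of the 7. The cause was not tested. Equal column sums moved the median of all genes by 0.13 in hypoxia against normoxia and turned 1846 higher and 2497 lower into 3973 and 1232. For hypoxia with T3 against normoxia they turned 3300 and 3817 into 4527 and 2856, and for hypoxia with T3 against hypoxia 353 and 485 into 284 and 697. No paired analysis was possible because the columns carry numbers of their own, which for hypoxia and T3 differ from the replicate numbers in the titles. Counting error was at most 17.4% of a value of the 7 genes (Egr4 in normoxia, where the SD was 52.5% of the mean).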
